A study of Mus musculus with 28 samples.

Results

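The genes of major histocompatibility complex (MHC) class II presentation and Ciita were followed through dendritic cells sorted from mouse spleen. The 10 genes H2-Aa, H2-Ab1, H2-Eb1, Cd74, Ciita, H2-DMa, H2-DMb1, H2-DMb2, H2-Oa and H2-Ob were chosen by their symbols. Each was 1 of the 55487 gene IDs in both count tables, and all 10 passed the filter on low counts in both experiments. The groups below are type 1 and type 2 conventional dendritic cells (cDC1 and cDC2) and cells that the labels call hybrid DC, all from C57BL/6 mice, with 2 biological replicates (2 libraries) per group, 28 libraries in all. The allele Irf8 +32H alters an enhancer that lies +32 kb from Irf8, a transcription factor gene of the dendritic lineage. Experiment 1 held hybrid cells of Irf8 +32H/+ (H/+) and Irf8 +32H/H (H/H) mice, and cDC1 and cDC2 of wild-type (WT), H/+ and H/H mice. Experiment 2 held hybrid cells of H/H Nfil3-/-, H/H Zeb2 -165D123 and H/H mice, and cDC1 of H/H Nfil3-/-, H/H and WT mice. The Nfil3 and Zeb2 alleles were thus studied only on the H/H background, there was no Nfil3-/- or Zeb2 -165D123 group with unaltered Irf8, and experiment 2 held no cDC2. Ages, sort gates and whether cells of several animals were pooled are not given in the labels.

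MHC class II molecules present peptides from the endosomal route to CD4 T cells, and conventional dendritic cells are among the cells that carry the most of them. The classical alpha and beta chains (H2-Aa with H2-Ab1 for I-A, H2-Eb1 for I-E) assemble on the invariant chain, encoded by Cd74, which escorts them to endosomes. Proteases remove the invariant chain until a short peptide is left in the groove. The H2-DM heterodimer (H2-DMa with H2-DMb1 or H2-DMb2) exchanges that peptide for others, and the H2-DO heterodimer (H2-Oa with H2-Ob) inhibits H2-DM. Ciita is the coactivator that switches these genes on, acting through factors bound to the X and Y boxes of their promoters. C57BL/6 mice lack a working H2-Ea gene, so that the I-E beta chain gene is transcribed without its partner.

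By GENCODE M21 on the mouse build GRCm38, 8 of the 10 genes lie in 1 stretch of chromosome 17. H2-Oa is at chr17:34092340-34095234, H2-DMa at chr17:34119541-34139101, H2-DMb2 at chr17:34143307-34151555, H2-DMb1 at chr17:34153072-34160230, H2-Ob at chr17:34238903-34254414, H2-Ab1 at chr17:34257689-34269419 and H2-Eb1 at chr17:34305867-34316674, all on the plus strand. H2-Aa is at chr17:34282744-34287823 on the minus strand. Ciita is at chr16:10480059-10528418 on the plus strand. The genome build behind the deposited counts is not given in the sources used here. Genes on the opposite strand overlap H2-DMa (Brd2, 119 to 197 CPM), H2-Oa (BC051537, 3.08 to 7.93 CPM) and H2-Eb1 (Gm20513, 0.999 to 2.45 CPM). Counting by strand is not stated, so reads of these pairs cannot be told apart.

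RefSeq promoter windows of 300 bases on GRCm38.p6 (250 before the start and 50 after it) were at hand for 7 of the 10 genes. The sequences below are the 60 bases around the Y box letters GATTGG, shown because the H2-DMb pair, whose levels went opposite ways between cell types, can be read there beside their neighbours in the region. Each is in the direction of transcription, and capitals mark the Y box letters GATTGG, the X box letters GCAAC and the X2 box letters ATGATGC. The X2 letters were chosen after the windows had been read. H2-Oa spans chr17:34092287-34092346, H2-DMb2 chr17:34145110-34145169, H2-DMb1 chr17:34153081-34153140, H2-Ob chr17:34238799-34238858 and H2-Eb1 chr17:34305759-34305818 on the plus strand, and H2-Aa chr17:34287861-34287920 on the minus strand.
H2-DMb2: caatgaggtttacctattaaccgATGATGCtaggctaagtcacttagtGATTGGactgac
H2-DMb1: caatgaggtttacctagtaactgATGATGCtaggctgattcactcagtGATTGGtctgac
H2-Oa: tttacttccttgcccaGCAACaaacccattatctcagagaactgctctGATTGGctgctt
H2-Ob: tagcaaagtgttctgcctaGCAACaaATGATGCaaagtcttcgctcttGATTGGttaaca
H2-Aa: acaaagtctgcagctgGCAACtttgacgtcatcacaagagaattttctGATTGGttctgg
H2-Eb1: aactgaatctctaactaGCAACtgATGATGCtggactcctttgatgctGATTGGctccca

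The H2-DMb1 and H2-DMb2 windows shared 54 of these 60 bases. Their Y box letters began at position -91 from the listed start of H2-DMb2 and at position -62 from that of H2-DMb1. H2-Oa, H2-Ob, H2-Aa and H2-Eb1 carried GCAAC 20 to 50 bases before GATTGG on the same strand, an arrangement found, on either strand, in 167 of 32851 RefSeq promoter windows (0.508%). Neither H2-DMb window carried it, and both carried ATGATGC. Over all promoter windows and both strands GCAAC occurred in 35.2%, ATGATGC in 2.46% and GATTGG in 16.1%. H2-DMa has 2 listed starts, and the only matches there were GATTGG at position -199 of 1 start and GCAAC on the opposite strand of the other, and its windows are not shown. A match is a match of letters and says nothing of binding in these cells.

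The count tables held 23.4 to 38.2 M counts per library in experiment 1 and 17.5 to 22.7 M in experiment 2. Levels are CPM, the counts scaled to a common total by library size and the trimmed mean of M values (TMM). Fold changes, their standard errors (SE) and adjusted p-values come from edgeR's quasi-likelihood test over all genes of an experiment. It tested 16036 and 14504 genes, with Benjamini-Hochberg adjustment, and a gene passed at an adjusted p below 0.05. Shares of all genes refer to edgeR's adjusted p, also where counts at an unadjusted p or with DESeq2 stand beside them. No share of all genes at an unadjusted p is given. With 2 libraries per group, libraries can fail to overlap by chance, and the share of all genes that did so is not given. In the labelled Nfil3-/- groups the level of Nfil3 was 2.75 to 5.69 CPM, against 35.7 to 55.3 CPM in the H/H groups of experiment 2. In experiment 1, where no group was labelled Nfil3-/-, Nfil3 was at only 6.03 to 11.7 CPM. The reason for this gap between the experiments was not tested. In H/H Zeb2 -165D123 hybrid cells Zeb2 was at 10.3 and 19.5 CPM, against 38.6 and 46.9 CPM in H/H hybrid cells. The summed level of 8 cDC1 markers was 1589 to 2023 CPM in the hybrid groups of experiment 1, 2592 to 3799 CPM in cDC1 and 347 to 455 CPM in cDC2. The summed level of 8 cDC2 markers was 603 to 867 CPM in those hybrid groups, 36.7 to 89.0 CPM in cDC1 and 954 to 1298 CPM in cDC2. In experiment 2 the cDC1 markers did not overlap between hybrid cells and cDC1 of the same genotype. They summed to 2846 to 2972 CPM in H/H Nfil3-/- hybrid cells, against 3359 to 3363 CPM in H/H Nfil3-/- cDC1. They summed to 1963 to 2171 CPM in H/H hybrid cells, against 2735 to 2906 CPM in H/H cDC1. H/H Zeb2 -165D123 hybrid cells had 2398 to 2702 CPM. Between genotypes, H/H Nfil3-/- hybrid cells overlapped H/H cDC1. The cDC2 markers of experiment 2 summed to 638 to 812 CPM in the hybrid groups and 27.5 to 151 CPM in cDC1. B cells also express these genes. The B cell genes Cd79a and Pax5 reached at most 3.37 CPM in any library, and Cd79b at most 53.2 CPM. Ms4a1 ranged from 15.5 to 182 CPM, Ighm from 344 to 823 CPM and Igkc from 3.81 to 456 CPM. A list of 12 B cell markers summed to 524 to 932 CPM in experiment 1. In experiment 2 the sum was uneven, with 795 to 1394 CPM for H/H Nfil3-/- hybrid cells and 446 to 786 CPM over the other groups. The part of B cells in the class II levels was not tested. In experiment 1 each replicate 2 library held Xist counts, an RNA of female cells, and each replicate 1 library did not. In experiment 2 replicate 2 of H/H Nfil3-/- cDC1, H/H Nfil3-/- hybrid and H/H Zeb2 -165D123 hybrid cells held them.

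The classical chains and the invariant chain took a large share of the RNA counts in every group. Cd74 lies apart from the class II region, at chr18:60803848-60812652 on the plus strand. H2-Aa, H2-Ab1, H2-Eb1 and Cd74 together took 10.6% to 13.1% of all counts of a library in experiment 1 and 9.20% to 13.03% in experiment 2. Per kb of the principal transcript, the only scale on which levels of different genes are set side by side here, the median level over the 16 libraries of experiment 1 was 55028 CPM per kb for Cd74. It was 13605 for H2-Ab1, 13477 for H2-Aa and 5673 CPM per kb for H2-Eb1. The accessory genes lay far lower, with 741 CPM per kb for H2-DMa, 511 for H2-Oa, 508 for H2-DMb1, 370 for H2-DMb2 and 126 for H2-Ob. Ciita had 107 CPM per kb. Group means of the 4 abundant genes differed little between groups. The highest group mean of experiment 1 was 1.32 times the lowest for H2-Aa, 1.44 times for H2-Ab1, 1.37 times for H2-Eb1 and 1.31 times for Cd74, against 5.49 times for H2-DMb2.

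**Figure D1:**
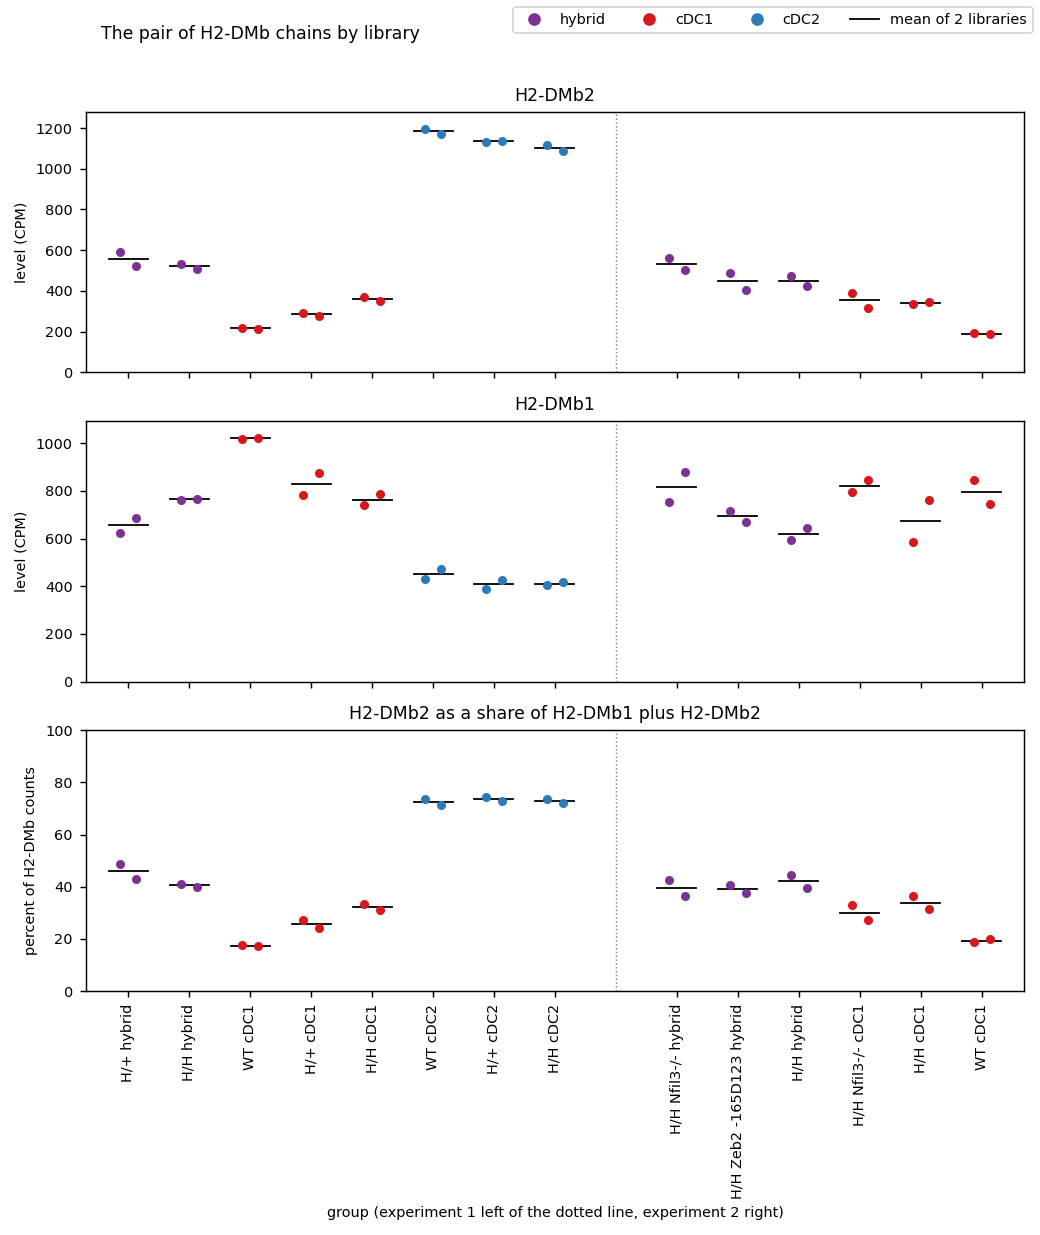
Levels of H2-DMb2 and H2-DMb1 (CPM) and the percent of their summed counts that came from H2-DMb2, by group, with a point for each library and a line for the mean of 2 libraries. On the panel of shares hybrid cells lie between WT cDC1, at 17.2% to 20.1%, and cDC2, at 71.3% to 74.4%.

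The H2-DM beta chains were the members that separated cDC1 from cDC2 most. H2-DMb2 had 219 and 212 CPM in WT cDC1, against 1197 and 1171 CPM in WT cDC2. H2-DMb1 had 1019 and 1021 CPM in WT cDC1, against 430 and 471 CPM in WT cDC2. WT cDC1 were thus low in H2-DMb2 and high in H2-DMb1, with no overlap of libraries for either gene. The level of H2-DMb2 was 5.49-fold lower in WT cDC1 (log2 fold change -2.46, SE 0.09, edgeR adjusted p = 1.15e-11), and that of H2-DMb1 was 2.26-fold higher (log2 fold change 1.18, SE 0.09, edgeR adjusted p = 7.23e-08). H2-DMb2 made up 17.7% and 17.2% of the H2-DMb counts in WT cDC1, against 73.6% and 71.3% in WT cDC2.

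The H2-DMb genes are near copies, and estimated counts may share reads between them. Of the 1255 aligned bases of their principal transcripts 94.4% were the same, and 26.8% of the 50-base stretches of H2-DMb2 also occurred in H2-DMb1, so the split of their counts is uncertain, by an amount that was not tested. Their summed level, which does not depend on the split, was 1238 and 1233 CPM in WT cDC1, against 1627 and 1643 CPM in WT cDC2. Per kb, the sum of both beta chains stood at 1.09 and 1.08 times the level of H2-DMa in WT cDC1, against 1.79 and 1.84 times in WT cDC2.

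Among WT cells 6 of the 10 genes passed, 3 higher and 3 lower in cDC1, where 44% of all genes tested passed, 20.5% higher and 23.4% lower. The median log2 fold change of the 10 was 0.04, beside -0.07 for all genes tested. Besides H2-DMb1, H2-Ab1 (log2 fold change 0.36) and H2-DMa (0.34) were higher in WT cDC1. H2-DMa had 1336 and 1339 CPM in WT cDC1, against 1065 and 1042 CPM in WT cDC2. Besides H2-DMb2, both H2-DO chains were lower in WT cDC1, H2-Oa with 338 and 307 CPM, against 626 and 585 CPM in WT cDC2 (log2 fold change -0.91, SE 0.10, edgeR adjusted p = 3.32e-06), and H2-Ob with a log2 fold change of -0.26. Per kb, H2-Oa stood at 0.386 and 0.349 times H2-DMa in WT cDC1, against 0.895 and 0.855 times in WT cDC2. In bulk RNA fewer cells that carry a transcript and less of it per cell cannot be told apart.

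The calls of H2-Ab1, H2-DMa and H2-Ob in WT cells depended on a library, on the scaling or on the filter on low counts. H2-Ab1 had an adjusted p of 0.0781 without WT cDC1 replicate 1 and 0.0829 without WT cDC2 replicate 1. H2-Ob had 0.193 without WT cDC1 replicate 2, 0.132 without WT cDC2 replicate 1 and 0.0801 without WT cDC2 replicate 2. When libraries were scaled by their totals alone, the median of all genes moved by -0.22 (log2), and H2-Ab1 (0.13, edgeR adjusted p = 0.331) and H2-DMa (0.12, 0.222) no longer passed. H2-Eb1 (log2 fold change 0.003) turned to -0.22 with an adjusted p of 0.0464, and Ciita went to -0.30 with an adjusted p of 0.0386, both close to that shift. H2-DMb1, H2-DMb2 and H2-Oa passed in the same direction under that scaling (log2 fold changes 0.95, -2.68 and -1.13). With no filter on low counts H2-Ob had an edgeR adjusted p of 0.0624.

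H2-DMa, H2-DMb1, H2-DMb2 and H2-Oa also differed between cDC1 and cDC2 of the altered genotypes. H2-Ab1 and H2-Ob did not pass there in the main fit, but did under some alternatives. In H/+ mice 4 of the 10 passed, beside 38.3% of all genes, and in H/H mice 4 passed, beside 36.7%. In both, H2-DMa and H2-DMb1 were the higher ones and H2-DMb2 and H2-Oa the lower ones in cDC1. H2-DMb2 was lower by 3.97-fold in H/+ cDC1 (log2 fold change -1.99, SE 0.09, edgeR adjusted p = 1.42e-10) and by 3.06-fold in H/H cDC1 (log2 fold change -1.61, SE 0.09, edgeR adjusted p = 1.61e-09). H2-DMb1 was 2.03-fold and 1.85-fold higher. The call of H2-Oa in H/H mice (log2 fold change -0.34) was lost without H/H cDC1 replicate 2 (adjusted p = 0.148) and without H/H cDC2 replicate 1 (0.0795) or replicate 2 (0.0539). H2-DMa had an adjusted p of 0.132 in H/+ mice and 0.12 in H/H mice when libraries were scaled by their totals alone, under which the median of all genes moved by -0.18 and -0.21. Under that scaling H2-Ob passed in H/+ (log2 fold change -0.40, adjusted p = 0.00205) and H/H mice (-0.39, 0.00277), and Ciita in H/H mice (-0.30, 0.0452). With only the H/+ cDC1 and cDC2 in the fit H2-DMa had an adjusted p of 0.134. With only the H/H cDC1 and cDC2 in the fit H2-Ab1 passed (log2 fold change 0.24, edgeR adjusted p = 0.0448). H2-Ob passed in H/+ mice with DESeq2 (log2 fold change -0.22, adjusted p = 0.0478). It also passed there in edgeR with a replicate block or a term for Xist (-0.23, adjusted p = 0.0414 each).

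In cDC1 the level of H2-DMb2 was higher with the altered Irf8 enhancer, and Irf8 itself was lower. H2-DMb2 had 219 and 212 CPM in WT, 292 and 279 CPM in H/+ and 368 and 352 CPM in H/H cDC1 of experiment 1. No library of a genotype overlapped the next. H2-DMb2 as a share of H2-DMb counts was 17.7% and 17.2% in WT, 27.2% and 24.1% in H/+ and 33.3% and 30.9% in H/H cDC1. The summed level of both H2-DMb genes did not rise, with 1238 and 1233 CPM in WT, 1076 and 1155 CPM in H/+ and 1107 and 1139 CPM in H/H cDC1. Over the same groups Irf8 had 2580 and 1960, 1221 and 1091, and 837 and 831 CPM.

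H/H cDC1 differed from WT cDC1 in 3 of the 10 genes in experiment 1, beside 4.17% of all genes, and in 2 of the 10 in experiment 2, beside 6.32%. H2-DMb2 rose in both experiments, by 1.67-fold in experiment 1 (log2 fold change 0.74, SE 0.09, edgeR adjusted p = 8.49e-05) and by 1.79-fold in experiment 2 (log2 fold change 0.84, SE 0.13, edgeR adjusted p = 0.000543). It passed in every fit that left out 1 of the libraries compared, with log2 fold changes of 0.71 to 0.77 in experiment 1 and 0.80 to 0.86 in experiment 2. The share of H2-DMb2 in experiment 2 was 36.3% and 31.4% in H/H cDC1, against 18.6% and 20.1% in WT cDC1. The summed H2-DMb level there overlapped, with 922 and 1108 CPM in H/H cDC1, against 1040 and 931 CPM in WT cDC1. The rise of H2-DMb2 in H/H cDC1 thus rests on the split of counts between the pair, whose uncertainty was not tested.

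H2-Oa, the alpha chain of H2-DO, also rose in H/H cDC1. It had 463 and 419 CPM in H/H cDC1, against 338 and 307 CPM in WT cDC1 of experiment 1 (log2 fold change 0.45, SE 0.10, edgeR adjusted p = 0.0166). In experiment 2 it had 419 and 501 CPM in H/H cDC1, against 310 and 284 CPM in WT cDC1 (log2 fold change 0.63, SE 0.15, edgeR adjusted p = 0.0131). The groups did not overlap in either experiment. Its call was lost in experiment 1 without H/H cDC1 replicate 1 (adjusted p = 0.193) or WT cDC1 replicate 2 (0.197), and in experiment 2 without H/H cDC1 replicate 2 (0.118) or WT cDC1 replicate 2 (0.118). Its partner H2-Ob had log2 fold changes of 0.07 and 0.27, with adjusted p-values of 0.808 and 0.288.

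H2-DMb1 fell in H/H cDC1 of experiment 1, with 739 and 787 CPM in H/H cDC1, against 1019 and 1021 CPM in WT cDC1 (log2 fold change -0.42, SE 0.09, edgeR adjusted p = 0.0147). In experiment 2 its libraries overlapped, with 587 and 760 CPM in H/H cDC1, against 846 and 744 CPM in WT cDC1 (log2 fold change -0.24, edgeR adjusted p = 0.413). Leaving out any 1 of the 4 libraries compared in experiment 1 ended its call there, with adjusted p-values of 0.169 and 0.0556 without replicate 1 and 2 of H/H cDC1, and 0.0845 and 0.101 without replicate 1 and 2 of WT cDC1. By library totals alone it had 0.0553. The 4 abundant genes had log2 fold changes of -0.30 (H2-Ab1) to -0.07 (H2-Eb1) in experiment 1 and -0.08 (H2-Ab1) to 0.05 (Cd74) in experiment 2, and none passed.

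**Figure D2:**
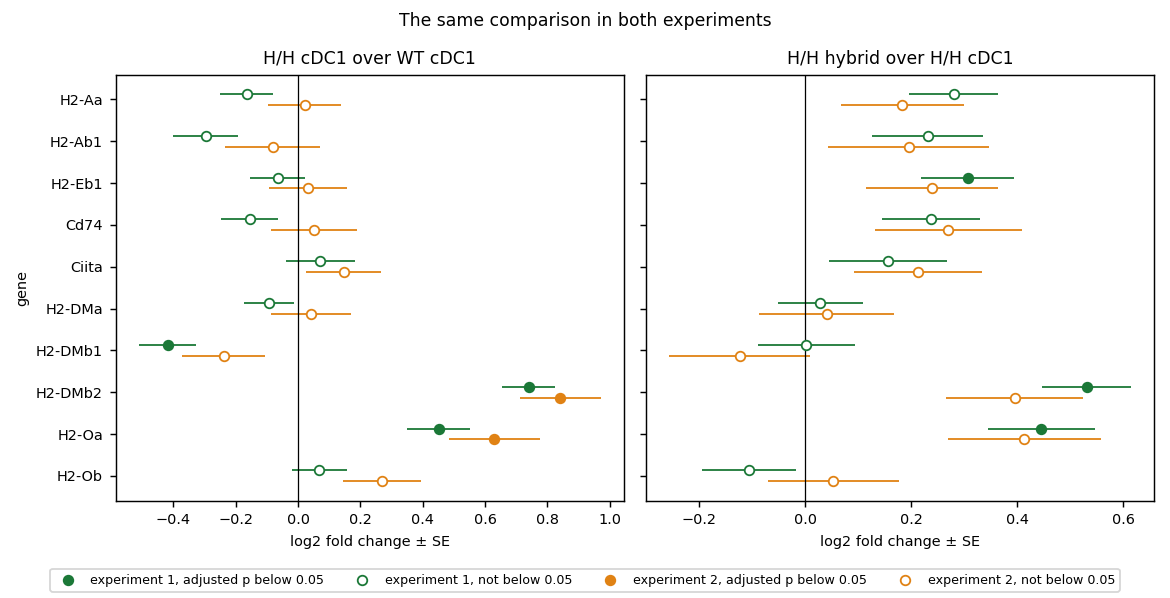
Log2 fold changes with their SE for the 10 genes in the comparisons made in both experiments, H/H cDC1 over WT cDC1 on the left and H/H hybrid over H/H cDC1 on the right. Filled points passed at an adjusted p below 0.05. H2-DMb2 and H2-Oa lie to the right of 0 in all 4 series.

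With 1 altered copy, H/+ cDC1 differed from WT cDC1 in 1 of the 10 genes, beside 1.47% of all genes. That gene was H2-DMb2 (log2 fold change 0.41, SE 0.09, edgeR adjusted p = 0.0289). The call was lost without H/+ cDC1 replicate 1 (adjusted p = 0.144), WT cDC1 replicate 1 (0.132) or WT cDC1 replicate 2 (0.208), and when only these 2 groups entered the fit (0.223). Between H/H and H/+ cDC1 none of the 10 passed with edgeR, beside 0.281% of all genes, although 2 had an unadjusted p below 0.05 and DESeq2 called 1. For H2-DMb2 the log2 fold change there was 0.34 (SE 0.08, edgeR adjusted p = 0.173). Its libraries did not overlap, which can also happen by chance with 2 libraries per group.

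In cDC2 none of the 10 genes passed in H/+ against WT cells or in H/H against WT cells with edgeR, beside 0.0249% and 0.0811% of all genes. DESeq2 also called none of them, and 0 and 2 of them had an unadjusted p below 0.05. H2-DMb2 had 1118 and 1086 CPM in H/H cDC2, against 1197 and 1171 CPM in WT cDC2 (log2 fold change -0.10, SE 0.08, edgeR adjusted p = 1). The difference between the H/H effect in cDC1 and that in cDC2 was tested as an interaction, in which 1.9% of all genes passed. H2-DMb2 was the 1 member that passed (log2 difference 0.84, SE 0.12, edgeR adjusted p = 0.00102). For H2-Oa the difference was 0.57 (SE 0.14, edgeR adjusted p = 0.0557). H2-Oa passed in the interaction with no filter on low counts (0.00983), with a replicate block or a term for Xist (0.0426 each), with DESeq2 (0.00696), when no other groups entered the fit (0.0419) and by library totals (0.0341).

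Hybrid cells held H2-DMb2 at levels between those of cDC1 and cDC2 within each genotype. In H/+ mice H2-DMb2 had 592 and 521 CPM in hybrid cells, 292 and 279 CPM in cDC1 and 1131 and 1137 CPM in cDC2. In H/H mice it had 531 and 509 CPM in hybrid cells, 368 and 352 CPM in cDC1 and 1118 and 1086 CPM in cDC2. No libraries of these groups overlapped within a genotype. H2-DMb2 made up 48.8% and 43.1% of H2-DMb counts in H/+ hybrid cells and 41.1% and 39.9% in H/H hybrid cells.

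Against cDC1 of the same genotype, 3 of the 10 genes passed in H/+ hybrid cells, beside 16.5% of all genes, and 3 in H/H hybrid cells of experiment 1, beside 7.85%. H2-DMb2 rose by 1.95-fold in H/+ hybrid cells (log2 fold change 0.96, SE 0.09, edgeR adjusted p = 1.14e-06) and by 1.44-fold in H/H hybrid cells (log2 fold change 0.53, SE 0.08, edgeR adjusted p = 0.000844). H2-Oa rose as well, with 550 and 587 CPM in H/+ hybrid cells, against 337 and 409 CPM in H/+ cDC1 (log2 fold change 0.61, SE 0.10, edgeR adjusted p = 0.000556). In H/H mice H2-Oa had 610 and 591 CPM in hybrid cells, against 463 and 419 CPM in cDC1 (log2 fold change 0.45, SE 0.10, edgeR adjusted p = 0.0122). H2-DMb1 fell in H/+ hybrid cells (log2 fold change -0.34, edgeR adjusted p = 0.0181), and H2-Eb1 rose in H/H hybrid cells (log2 fold change 0.31, edgeR adjusted p = 0.0454).

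Some of these calls rested on single libraries. H2-DMb1 in H/+ mice had an adjusted p of 0.114 without H/+ cDC1 replicate 2 and 0.181 without H/+ hybrid replicate 1. H2-Eb1 in H/H mice was lost without any 1 of the 4 libraries, with 0.148 and 0.255 without replicate 1 and 2 of H/H cDC1, and 0.297 and 0.101 without replicate 1 and 2 of H/H hybrid cells, and 0.0694 by library totals alone. H2-Oa in H/H mice had 0.159 without H/H cDC1 replicate 2, 0.0992 without H/H hybrid replicate 1 and 0.0616 without H/H hybrid replicate 2.

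In experiment 2 none of the 10 passed between H/H hybrid cells and H/H cDC1 with edgeR, beside 12.5% of all genes, with 2 at an unadjusted p below 0.05 and 2 called by DESeq2. H2-DMb2 had 475 and 422 CPM in H/H hybrid cells, against 335 and 347 CPM in H/H cDC1 (log2 fold change 0.40, SE 0.13, edgeR adjusted p = 0.0564). H2-Oa had 624 and 601 CPM in H/H hybrid cells, against 419 and 501 CPM in H/H cDC1 (log2 fold change 0.41, SE 0.14, edgeR adjusted p = 0.0728). The groups did not overlap for either gene, which can also happen by chance with 2 libraries per group. By library totals alone both passed (adjusted p = 0.0398 for H2-DMb2 and 0.0489 for H2-Oa). Replicate 1 of H/H cDC1 was low in Cd74, with 57675 CPM, against 75880 CPM in replicate 2 of the same group, and without replicate 2 Cd74 passed (log2 fold change 0.49, edgeR adjusted p = 0.0363).

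Hybrid cells were also set against cDC2 of the same genotype. In H/+ mice 3 of the 10 passed, beside 19% of all genes, and in H/H mice 8 of the 10, beside 25.4%. Of the 8, 6 were higher in H/H hybrid cells, beside 12.9% of all genes, and 2 lower, beside 12.5%. At an unadjusted p below 0.05 there were 8 in each genotype. The share of all genes at that p is not given here. DESeq2 called 6 in H/+ mice and 8 in H/H mice, where it called 3063 and 4060 of all genes. By library totals alone 3 passed in each, where 3503 and 5328 of all genes passed. H2-DMb2 was lower by 2.04-fold in H/+ hybrid cells (log2 fold change -1.03, SE 0.09, edgeR adjusted p = 5.9e-07) and by 2.12-fold in H/H hybrid cells (log2 fold change -1.08, SE 0.09, edgeR adjusted p = 2.35e-07). H2-DMb1 was higher by 1.6-fold and 1.86-fold. In H/H hybrid cells H2-Aa, H2-Ab1, H2-Eb1, Cd74 and H2-DMa were higher by log2 fold changes of 0.39 to 0.46, and H2-Ob was lower by 1.22-fold. H2-Aa had 17856 and 17311 CPM in H/H hybrid cells, against 13248 and 13300 CPM in H/H cDC2. H2-Oa did not pass in either genotype (log2 fold changes -0.04 and 0.11).

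The higher levels of the abundant genes in H/H hybrid cells than in H/H cDC2 depended on the scaling. By library totals alone the median of all genes moved by -0.24, and H2-Aa (0.16), H2-Ab1 (0.22), H2-Eb1 (0.21), Cd74 (0.15) and H2-DMa (0.15) had adjusted p-values of 0.078 to 0.201. H2-DMb1, H2-DMb2 and H2-Ob passed under both scalings. Without H/H cDC2 replicate 2 the adjusted p was 0.0539 for H2-Ab1 and 0.0528 for Cd74, and without H/H hybrid replicate 1 it was 0.0532 and 0.0751. H2-Ob had 0.256 without H/H cDC2 replicate 1, 0.0807 without H/H hybrid replicate 1 and 0.169 without H/H hybrid replicate 2. H2-DMa in H/+ mice (log2 fold change 0.28) had 0.0618 to 0.091 without each of the 4 libraries in turn, and 0.331 by library totals. In each hybrid group the monocyte and macrophage markers summed to more than in cDC1, with 463 to 568 CPM in hybrid cells of experiment 1, 77.4 to 118 CPM in cDC1 and 520 to 663 CPM in cDC2, and their part in these results was not tested.

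**Figure D3:**
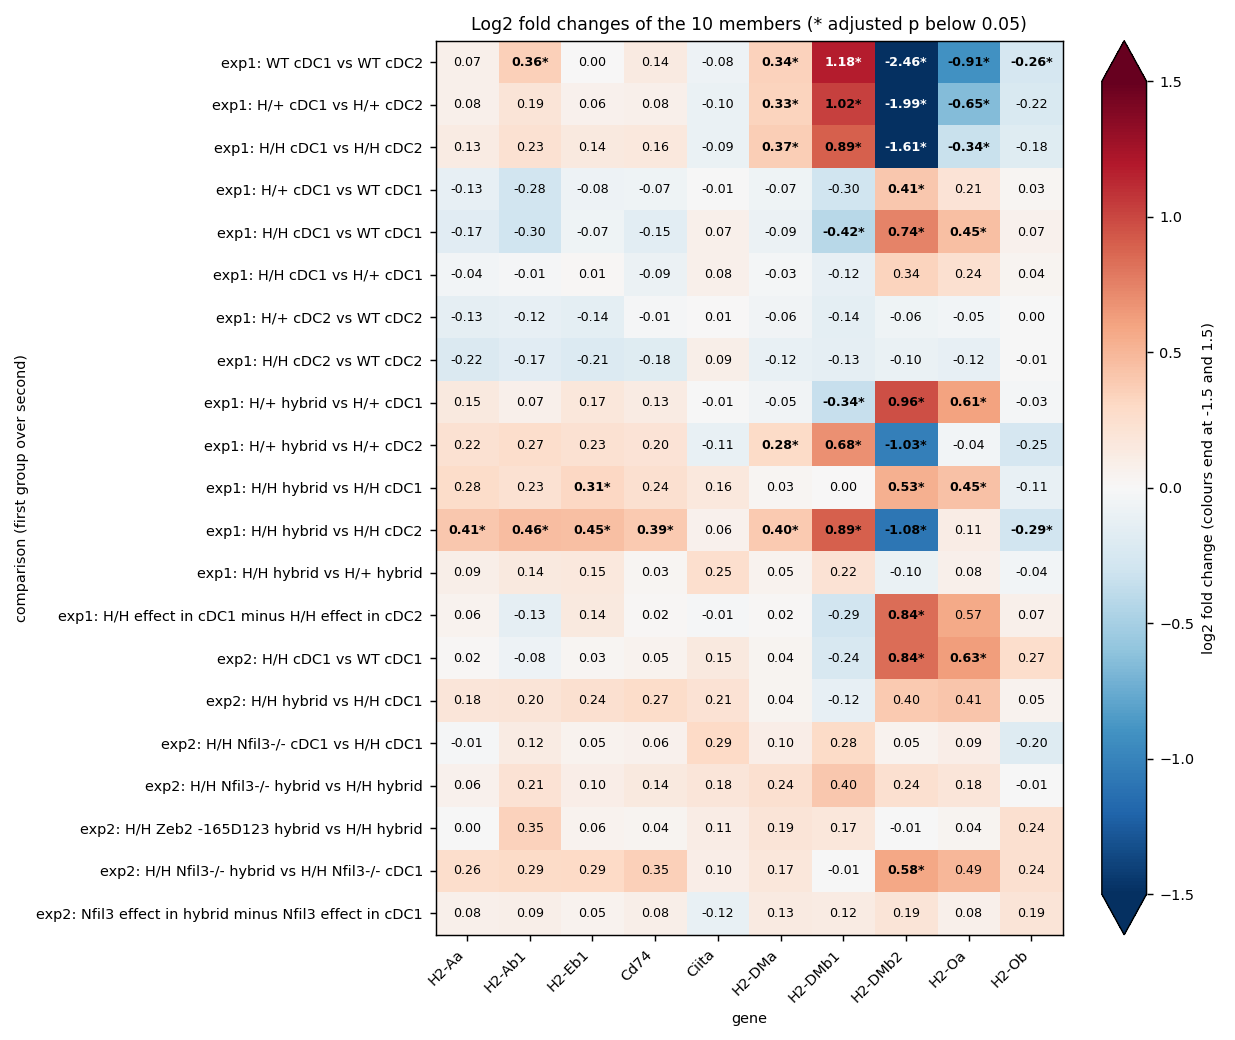
Log2 fold changes of the 10 genes (columns) in the 21 comparisons (rows, first group over second or first effect minus second), with an asterisk and bold type at an adjusted p below 0.05. Red is higher and blue lower in the first group, and the H2-DMb2 column holds the most values beyond 0.5 in size, 11 of 21, with 5 each for H2-DMb1 and H2-Oa.

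Between H/H and H/+ hybrid cells none of the 10 passed with edgeR or DESeq2, beside 0.131% of all genes, and 2 had an unadjusted p below 0.05. Ciita had 712 and 734 CPM in H/H hybrid cells, against 610 and 608 CPM in H/+ hybrid cells (log2 fold change 0.25, SE 0.11, edgeR adjusted p = 0.735).

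Loss of Nfil3, a repressor gene of the bZIP class, on the H/H background left the 10 genes without an edgeR call in cDC1 (beside 3.03% of all genes) and in hybrid cells (beside 3.73%). At an unadjusted p below 0.05 there were 2 in cDC1 and 1 in hybrid cells, and DESeq2 called 0 and 1. The call by DESeq2 was H2-DMb1, with 754 and 881 CPM in H/H Nfil3-/- hybrid cells, against 593 and 643 CPM in H/H hybrid cells (log2 fold change 0.40, SE 0.13, edgeR adjusted p = 0.103). The log2 difference between the libraries without Xist was 0.29 for this gene. H2-DMb2 had 390 and 317 CPM in H/H Nfil3-/- cDC1, against 335 and 347 CPM in H/H cDC1, which overlapped. When the effect of Nfil3 loss was compared between hybrid cells and cDC1, no member passed with edgeR or DESeq2, beside 0.00689% of all genes, and 0 had an unadjusted p below 0.05.

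Within H/H Nfil3-/- mice the step between cell types was present for H2-DMb2, the 1 of 10 genes that passed, beside 5.28% of all genes. H2-DMb2 had 561 and 501 CPM in hybrid cells, against 390 and 317 CPM in cDC1 (log2 fold change 0.58, SE 0.13, edgeR adjusted p = 0.0125). The call was lost without H/H Nfil3-/- cDC1 replicate 2 (adjusted p = 0.22) or hybrid replicate 1 (0.157). H2-Oa had 759 and 624 CPM in hybrid cells, against 544 and 438 CPM in cDC1 (log2 fold change 0.49, edgeR adjusted p = 0.0603).

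With the altered Zeb2 enhancer in H/H hybrid cells there was no edgeR or DESeq2 call among the 10, beside 4.03% of all genes, and 1 had an unadjusted p below 0.05. That gene was H2-Ab1, with 19732 and 17871 CPM in H/H Zeb2 -165D123 hybrid cells, against 13703 and 15793 CPM in H/H hybrid cells (log2 fold change 0.35, SE 0.15, edgeR adjusted p = 0.265). The monocyte and macrophage markers summed to 643 to 744 CPM in H/H Zeb2 -165D123 hybrid cells, against 320 to 377 CPM in H/H hybrid cells. The part of these markers' cells in this comparison was not tested. H2-DMb2 had 490 and 404 CPM in H/H Zeb2 -165D123 hybrid cells, against 475 and 422 CPM in H/H hybrid cells, and H2-DMb2 made up 40.6% and 37.6% of H2-DMb counts, against 44.5% and 39.6%.

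**Figure D4:**
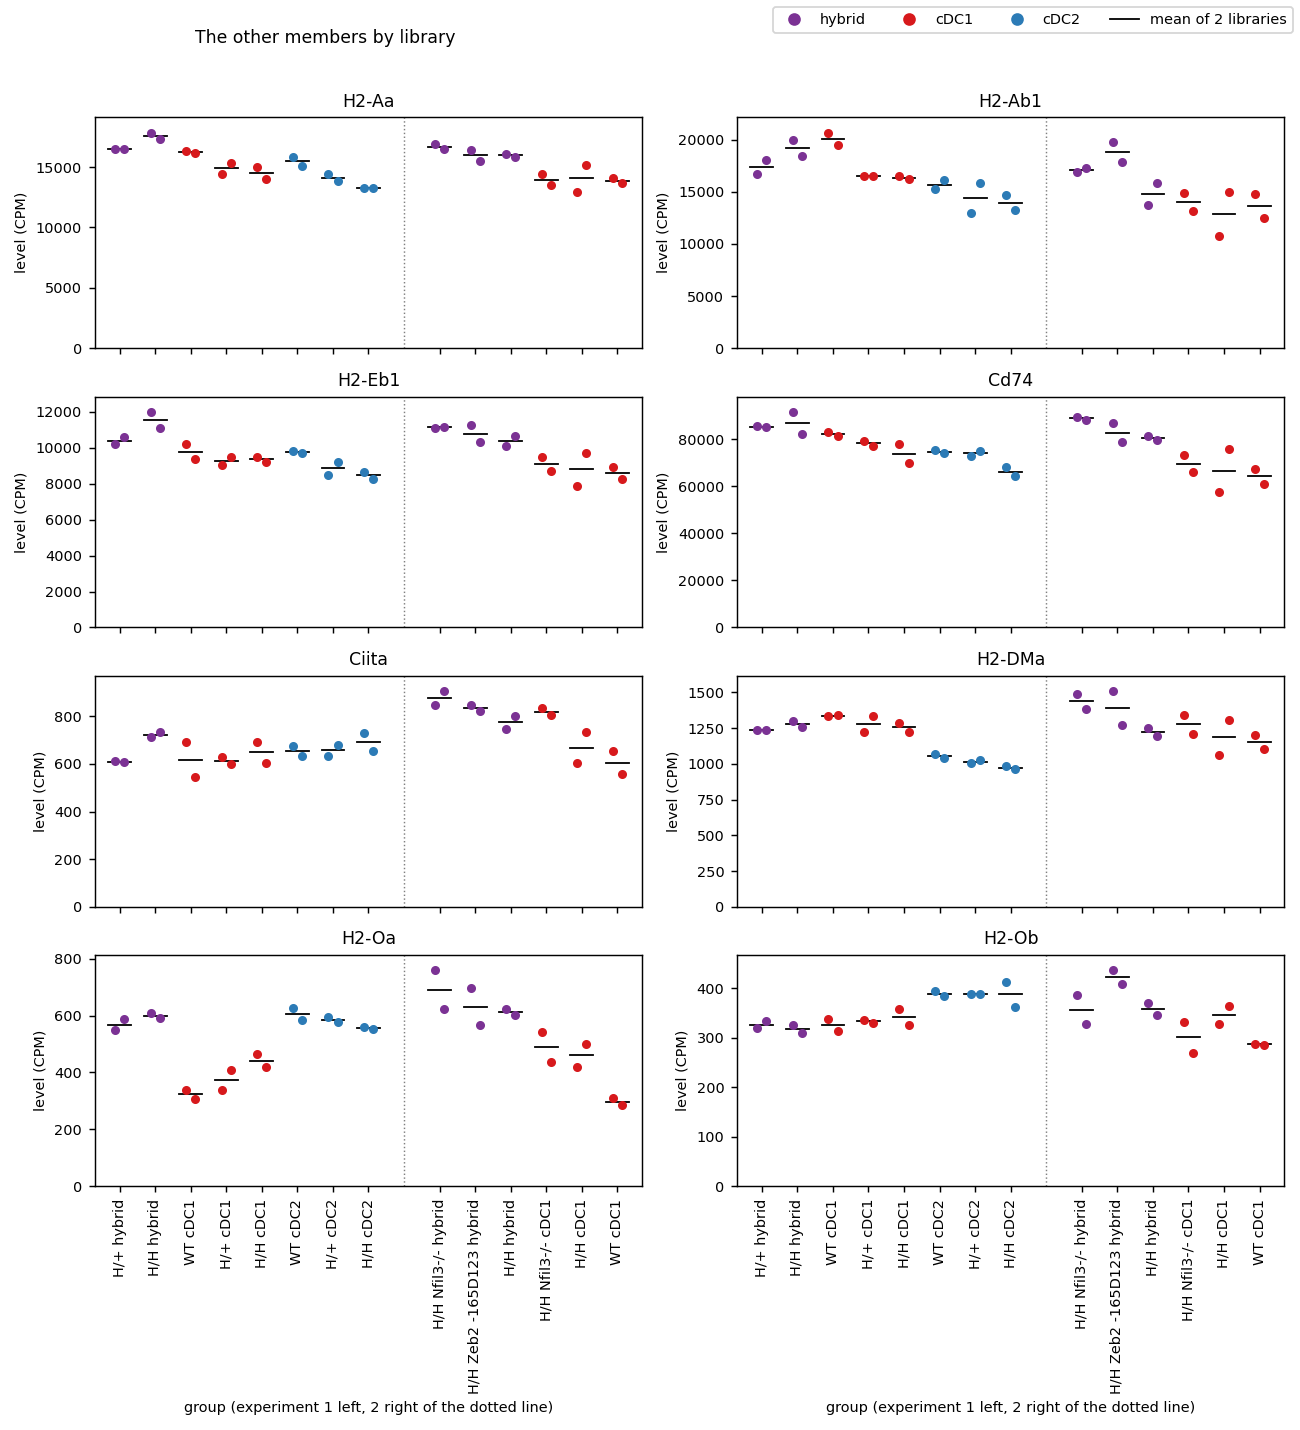
Levels (CPM) of the 8 genes other than the H2-DMb pair in each group, with a point for each library and a line for the mean of 2 libraries. Each axis starts at 0, and H2-Oa is lowest in WT cDC1 of both experiments.

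The order of the groups differed between the genes. For H2-DMb2 in experiment 1 the order from high to low was WT, H/+ and H/H cDC2, then H/+ hybrid and H/H hybrid, then H/H, H/+ and WT cDC1, and the only neighbours whose libraries overlapped were the hybrid groups. H2-DMb1 lay between 1020 ± 2.05 CPM in WT cDC1 and 408 ± 26.2 CPM in H/+ cDC2 (SD, n = 2 each), and H/H hybrid cells overlapped H/H cDC1 there. H2-Oa lay between 323 ± 21.9 CPM in WT cDC1 and 605 ± 28.6 CPM in WT cDC2 (SD, n = 2 each), and the hybrid groups fell among the cDC2 groups with each neighbour overlapping. H2-Ob lay between 317 ± 10.9 CPM in H/H hybrid cells and 389 ± 6.71 CPM in WT cDC2 (SD, n = 2 each), and cDC2 stood above the rest, each of which overlapped the next.

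For the abundant genes hybrid cells stood at or near the top. H/H hybrid cells had the highest mean of experiment 1 for H2-Aa (17584 ± 385 CPM), H2-Eb1 (11561 ± 621 CPM) and Cd74 (87092 ± 6618 CPM), and H/H cDC2 had the lowest for these and for H2-Ab1 (13964 ± 977 CPM; SD, n = 2 each). WT cDC1 had the highest mean of H2-Ab1 (20095 ± 827 CPM), with libraries that overlapped those of H/H hybrid cells. Part of this order depended on the scaling. By library totals alone WT cDC2 had the highest mean of H2-Aa (16528 CPM, against 16516 CPM in H/H hybrid cells). H/+ hybrid cells then had the highest mean of Cd74 (82688 CPM, against 81756 CPM in H/H hybrid cells). The lowest means were then in H/H cDC1 for H2-Aa and Cd74 and in H/+ cDC1 for H2-Eb1. In experiment 2 the 3 hybrid groups had the highest means of H2-Aa, H2-Ab1, H2-Eb1, Cd74, H2-Oa and H2-DMb2. Among these 6 genes, only for H2-Ab1 did a hybrid and a cDC1 group next to each other in that order overlap.

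Ciita, the coactivator of the whole set, did not pass in any of the 21 comparisons. When libraries were scaled by their totals it passed between cDC1 and cDC2 of WT (-0.30, adjusted p = 0.0386) and H/H mice (-0.30, 0.0452). Its group means in experiment 1 lay between 609 and 723 CPM, each group overlapping the next in order. In experiment 2 they lay between 877 ± 41.0 CPM in H/H Nfil3-/- hybrid cells and 604 ± 68.3 CPM in WT cDC1 (SD, n = 2 each), 2 groups that were not compared. Its largest log2 fold change in a comparison was 0.29, with 834 and 807 CPM in H/H Nfil3-/- cDC1, against 605 and 732 CPM in H/H cDC1 (SE 0.12, edgeR adjusted p = 0.249). WT cDC1 of experiment 1 were among the most spread, with 691 and 544 CPM. The counts are per gene, so the separate promoters of Ciita could not be told apart.

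Of a list of 23 genes of the pathway, which holds factors at Ciita and at class II promoters, processing genes and other genes of the region, 3 were higher and 11 lower in WT cDC1 than in WT cDC2, beside 20.5% and 23.4% of all genes. Irf8 was at 2580 and 1960 CPM in WT cDC1, against 48.9 and 47.9 CPM in WT cDC2 (log2 fold change 5.55, SE 0.16, edgeR adjusted p = 1.16e-12). Irf4, its relative that marks cDC2, was at 2.48 and 3.04 CPM in WT cDC1, against 111 and 107 CPM in WT cDC2 (log2 fold change -5.30, SE 0.30, edgeR adjusted p = 2.46e-08). Prdm1, which encodes the repressor Blimp-1, was lower in WT cDC1 (log2 fold change -4.14, SE 0.25, edgeR adjusted p = 4.1e-09).

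H2-Eb2, another E beta chain gene next to H2-Eb1, was also low in cDC1. It had 5.74 and 6.45 CPM in WT cDC1, against 60.5 and 59.0 CPM in WT cDC2 (log2 fold change -3.29, SE 0.16, edgeR adjusted p = 3.48e-10), while H2-Eb1 had 10207 and 9362 CPM in WT cDC1, against 9814 and 9717 CPM in WT cDC2. H2-Eb2 had 26.6 and 18.8 CPM in H/+ hybrid cells and 19.9 and 22.6 CPM in H/H hybrid cells, again between cDC1 and cDC2. No 50-base stretch of the principal transcript of H2-Eb2 occurred in H2-Eb1.

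Among the pathway genes Lgmn, Prdm1 and Irf4 were higher in H/H than in WT cDC1 in both experiments. In H/H cDC1 4 of the 23 were higher and 1 lower than in WT cDC1 of experiment 1. In experiment 2, 5 were higher and 1 lower. Beside these, 4.17% and 6.32% of all genes passed, counted in either direction. Irf8 was the lower gene in both experiments. Lgmn, a lysosomal endopeptidase that acts on antigens and the invariant chain, had 134 and 125 CPM in H/H cDC1, against 69.9 and 77.9 CPM in WT cDC1 of experiment 1 (log2 fold change 0.81, SE 0.12, edgeR adjusted p = 9e-04). In experiment 2 it had 144 and 163 CPM in H/H cDC1, against 54.7 and 53.4 CPM in WT cDC1 (log2 fold change 1.504, SE 0.14, edgeR adjusted p = 3.34e-06). Prdm1 rose as well, with 6.11 and 5.27 CPM in H/H cDC1, against 0.943 and 0.425 CPM in WT cDC1 of experiment 1 (log2 fold change 3.08, SE 0.26, edgeR adjusted p = 4.04e-06). Irf4 rose by log2 fold changes of 1.84 and 2.19.

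Hybrid cells carried the highest levels of Lgmn. Of the 23 genes 8 were higher and 1 lower in H/+ hybrid cells than in H/+ cDC1. In each experiment 6 were higher and 1 lower in H/H hybrid cells than in H/H cDC1. Beside these, 16.5% of all genes passed in H/+ mice, counted in either direction. In H/H mice 7.85% and 12.5% did so in experiments 1 and 2. Lgmn had 359 and 400 CPM in H/+ hybrid cells, 132 and 116 CPM in H/+ cDC1 and 153 and 200 CPM in H/+ cDC2. It was thus above both, with log2 fold changes of 1.61 over cDC1 (SE 0.12, edgeR adjusted p = 2.29e-07) and 1.11 over cDC2 (SE 0.12, edgeR adjusted p = 1.14e-05). Prdm1 too was above both, with log2 fold changes of 3.39 and 1.08. Ctss, the cathepsin that cuts the last part of the invariant chain, had 1505 and 1429 CPM in H/+ hybrid cells, against 722 and 842 CPM in H/+ cDC1 (log2 fold change 0.91, SE 0.10, edgeR adjusted p = 7.51e-06).

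**Figure D5:**
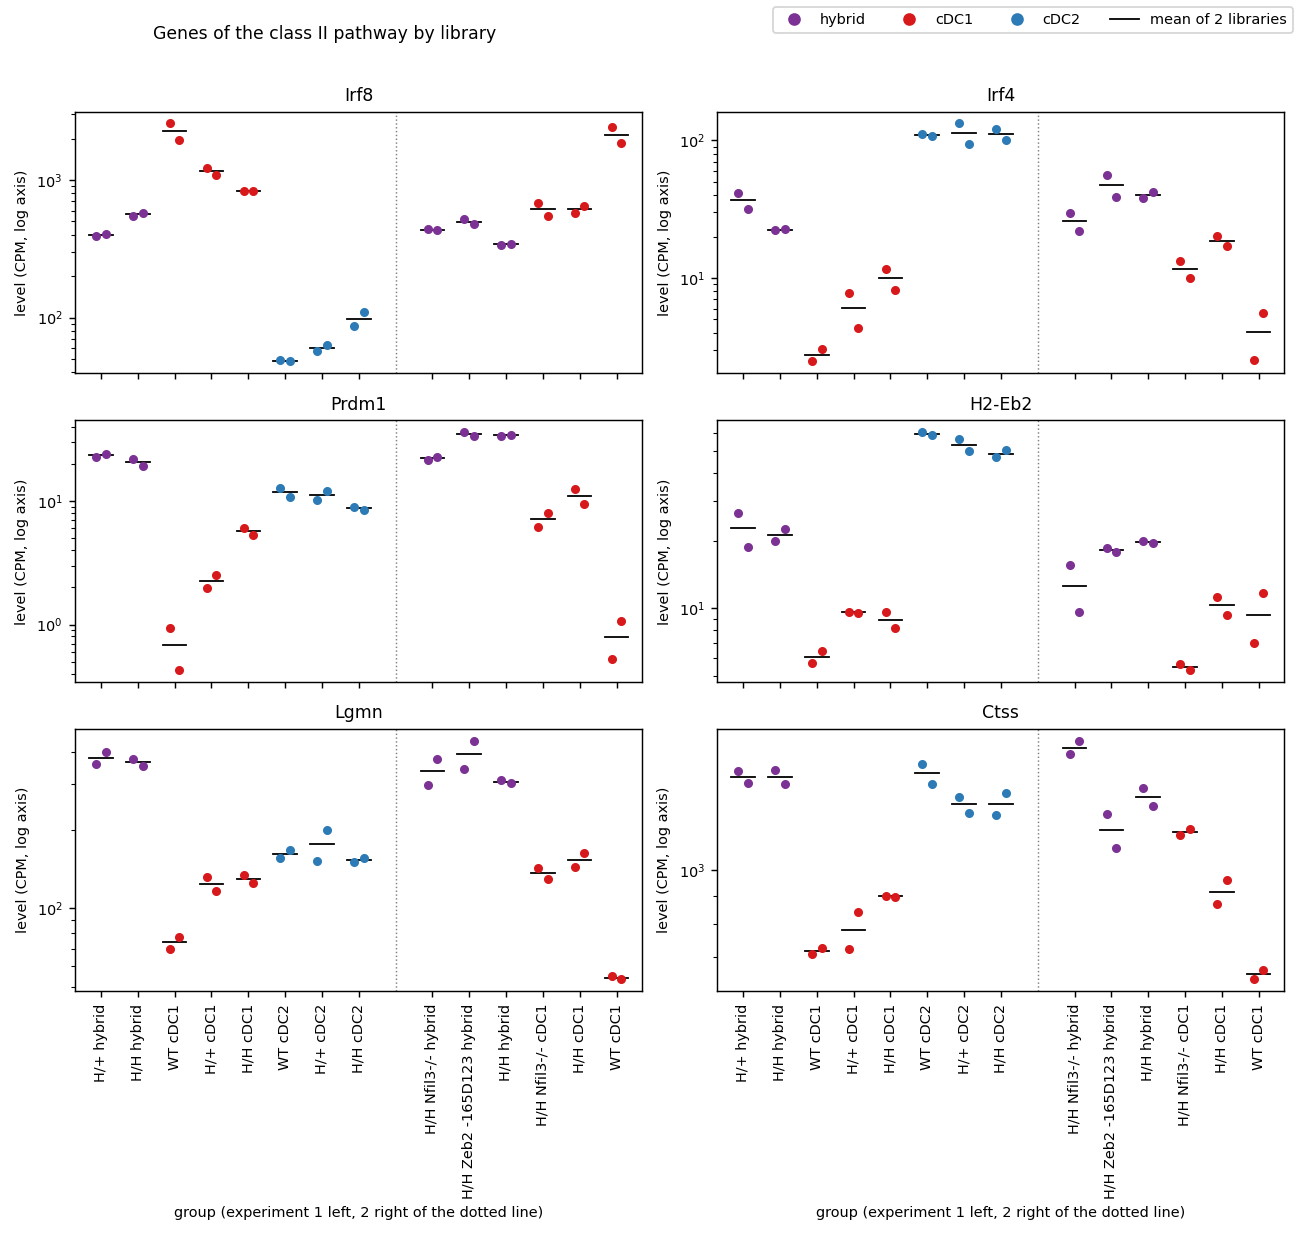
Levels (CPM, log axes) of Irf8, Irf4, Prdm1, H2-Eb2, Lgmn and Ctss in each group, with a point for each library and a line for the mean of 2 libraries. Irf8 falls from WT through H/+ to H/H cDC1, and Lgmn is highest in the hybrid groups.

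The genes whose patterns were most like those of the set were found by Pearson's r of log2 CPM over the 16 libraries of experiment 1, among 7059 genes. For Ciita they were Mvp (0.785, and 0.828 over the 12 libraries of experiment 2), Tmco4 (0.784 and 0.777), Zfp956 (0.765 and 0.814), Trmt1l (0.747 and 0.245) and Usf1 (0.729 and 0.924). For the mean of H2-Aa, H2-Ab1, H2-Eb1 and Cd74 they included Pold4 (0.9 and 0.894), Pyurf (0.892 and 0.5), Hfe (0.883 and 0.76) and Hexa (0.881 and 0.843). The libraries share cell types and depth, so these values are descriptions and carry no test.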

How the data were processed

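The values are estimated counts per gene, that is expected counts, that the authors deposited in 1 table per experiment. Per the submitters' processing notes, the tools were edgeR, DRAGEN and bcl2fastq, with no version given, and the genome build and annotation are not given in the sources used here. Of 55774 lines 287 repeated a gene ID with the same values and were dropped. Counts were rounded, since 10.8% and 10.2% of the values were not whole. Each experiment was fitted by itself with edgeR 4.0.16 (R 4.3.3), with filterByExpr, TMM factors and the quasi-likelihood test over all its groups, on 8 and 6 residual degrees of freedom. Each SE was derived by dividing the absolute log2 fold change by the square root of F. The script was tested on simulated data. DESeq2 1.42.0 was an alternative. Coordinates came from GENCODE M21, which held 55141 (99.4%) of the gene IDs, and sequences from RefSeq, aligned with Biopython 1.88.

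The 10 genes and the lists were chosen with earlier results of these data known. All 10 were named in every comparison, and of the 23 pathway genes at most the 4 with the largest change, besides Irf8 and Irf4. Ctss, and Prdm1 in hybrid cells against cDC2, were named after their values were seen. The labels call the replicates biological duplicates and do not say whether they are separate animals, so p-values measure the spread between these libraries. Libraries held 17.5 to 38.2 M counts, and low genes rest on few of them, such as Prdm1 with 24 and 13 counts in WT cDC1. Some genes of the lists are not reported here.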

Additional observations from a re-analysis of the deposited data

Results flagged for a closer look

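The effect of the H/H genotype in cDC1 differed from that in cDC2 for 5 genes among the 10 members and the 23 pathway genes. This was by an interaction term in edgeR's fit, in which 1.9% of all genes passed. For H2-DMb2 the log2 difference of the effects was 0.843 (edgeR adjusted p = 0.00102), for Irf8 -2.46 (3.65e-06), for Irf4 1.825 (0.0254), for Prdm1 3.527 (2.23e-05) and for Lgmn 0.89 (0.0108). H2-DMb2 had a log2 fold change of 0.74 in H/H over WT cDC1, and -0.10 in H/H over WT cDC2.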

How the results depend on the processing

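The 10 genes were tested in 21 comparisons, and 2390 values were recomputed under the alternatives. Of these, 2276 kept their side of the threshold and, where they had passed, their direction, 62 no longer passed, 51 newly passed and 1 turned its direction and passed. The 2276 include 134 that passed in neither case and changed sign. The reversal was H2-Eb1 in WT cDC1 over WT cDC2, at -0.22 when libraries were scaled by their totals without TMM factors, an alternative chosen after seeing the data. Under that scaling the number of the 10 that passed was 3 in H/H hybrid cells against cDC2, 2 in the interaction of the H/H effect and 2 in H/H hybrid cells against cDC1 of experiment 2. With no filter on low counts it was 2 in H/+ against WT cDC1, 5 in H/H hybrid cells against cDC1 of experiment 1, 2 in the interaction, 2 in H/H hybrid cells against cDC1 of experiment 2, 1 in Nfil3-/- against H/H hybrid cells and 3 in Nfil3-/- hybrid cells against Nfil3-/- cDC1. With DESeq2 it was 2 in H/+ against WT cDC1, 1 in H/H against H/+ cDC1, 6 in H/+ hybrid cells against cDC2, 2 in the interaction, 2 in H/H hybrid cells against cDC1 of experiment 2, 1 in Nfil3-/- against H/H hybrid cells and 2 in Nfil3-/- hybrid cells against cDC1. When the fit held no other groups than those compared, it was 0 in H/+ against WT cDC1, 2 in the interaction, 1 in H/H against WT cDC1 of experiment 2, 1 in Nfil3-/- against H/H hybrid cells and 2 in Nfil3-/- hybrid cells against cDC1. The cause was not tested, and the shares of all genes that passed under each alternative are not given here.

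The groups share replicate numbers, which the labels do not tie to animals or days. Deviations from the group means of same-numbered libraries correlated above 0.1 in 24 of 28 pairs of groups in experiment 1 (0.04 to 0.342). In experiment 2 they did so in 2 of 15 (-0.205 to 0.231). Same-numbered libraries of experiment 1 thus shared some of their variation. The main fits held no replicate block, because of the labels, and the block was an alternative. With a replicate block the interaction gave 2 members in place of 1, with H2-Oa added (adjusted p = 0.0426). H2-Ob was then added in H/+ cDC1 against cDC2 (0.0414) and in H/+ hybrid cells against cDC2 (0.0415), and H2-Aa in H/H hybrid cells against H/H cDC1 of experiment 1 (0.0458). No other call among the 10 changed under the block. In experiment 1 the number and Xist coincide. With a term for Xist the interaction gave 2, H/H hybrid cells against cDC1 of experiment 2 gave 2, and Nfil3-/- hybrid cells against Nfil3-/- cDC1 gave 2.

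Leaving out 1 library at a time assumes that the lone library of its group varies like the others. The number that passed was then 4 to 5 in WT, 4 to 5 in H/+ and 3 to 4 in H/H cDC1 against cDC2. It was 0 to 1 in H/+ against WT cDC1, and 1 to 2 in H/H against WT cDC1 of each experiment. In hybrid cells against cDC1 it was 2 to 3 in H/+ mice, 1 to 2 in H/H mice of experiment 1, 0 to 1 in experiment 2 and 0 to 1 in Nfil3-/- mice. Against cDC2 it was 2 to 3 in H/+ and 5 to 7 in H/H hybrid cells. The interaction of the H/H effect gave 1 in each, and the other 8 comparisons gave 0 in each.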
